A study of Prunus sibirica with 6 samples.

Results

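Plant cells dismantle themselves by several routes, and the genes of 4 of them are described here in frosted apricot flowers. They are genes whose protein description in the deposited table names autophagy, metacaspases, vacuolar-processing enzymes or senescence, left out where the same description names a NAC, WRKY, U-box, receptor-like or cytochrome P450 protein. This choice took 126 of 31889 genes, and 3 further matches were dropped by the excluded words. By description 40 are autophagy genes, 9 metacaspases, 5 vacuolar-processing enzymes and 72 senescence-named genes. The names are similarities to proteins of other species, and several genes are members only through an alternative name or a domain, so the last class holds proteins of unlike function.

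RNA was sequenced from floral organs of Prunus sibirica, the Siberian apricot, an early-blooming tree. Clone 338, labelled as having strong frost resistance, and clone 28, labelled as having weak frost resistance, gave 3 libraries each, called strong and weak libraries 1, 2 and 3 here. All flowers were at the blooming stage and had been damaged by natural frost at -4 °C, so both groups share the frost and no unfrosted flower was analysed here. Each kind of resistance is represented by a single clone, so that frost resistance and every other trait in which clones 338 and 28 differ cannot be told apart. Whether separate trees stand behind the libraries is not stated in the labels. The p-values therefore reflect the spread between libraries, which may be technical.

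In autophagy a membrane closes around part of the cell and delivers it to the vacuole. The ATG1 kinase complex starts it, ATG9 with ATG2 and ATG18 proteins supplies membrane, and ubiquitin-like conjugation enzymes attach ATG8 to that membrane, where ATG8 also holds the cargo. Metacaspases and vacuolar-processing enzymes are cysteine proteases with known parts in plant cell death, and senescence-named genes were mostly first found in ageing leaves or cells of Arabidopsis. Petals and tissues of the anther pass through such programmed breakdown in normal flower development.

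Each library had between 16367632 and 18866306 reads on genes. The mean log2(FPKM + 1) of the 70 tested of 124 pollen genes was 5.14, 5.46 and 4.85 in the strong libraries and 5.88, 5.76 and 5.46 in the weak libraries. FPKM are the deposited values, fragments per kilobase of gene scaled by a factor for each library. This scaling did not follow the number of reads. Summed FPKM was 500782, 591204 and 464129 in the strong libraries. In the weak libraries it was 1.22e+06, 1.11e+06 and 580337. The mean of the 47 tested of 57 genes of green tissue was 5.46, 5.44 and 5.54 in the strong libraries and 4.10, 4.65 and 5.16 in the weak libraries. Weak library 3 stood apart from its group, with correlations across genes of 0.918, 0.925 and 0.895 with the strong libraries and of 0.849 and 0.861 with weak libraries 1 and 2. In whole flowers, fewer cells of a type and less RNA per cell cannot be told apart. The part of the pollen and green tissue levels in the results that follow was not tested.

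Of these genes 9 differed between the clones, and 7 of them are senescence-named. Of the 126 genes, 99 had at least 1 read and 69 were tested because 3 or more of the 6 libraries reached 1 FPKM. The other 57 were too low, 27 of them with no read in any library. With limma and an adjusted p under 0.05 as the threshold, 5 of the 69 were higher in the strong clone, where 7.53% of all 16462 tested genes were higher. A further 4 were lower, where 7.78% of all tested genes were lower. Together the 9 calls are 13.04% of the tested members, against 15.3% of all tested genes, a share near the background. The median log2 difference, strong minus weak, was -0.19 over the 69 genes and 0.05 over all tested genes. With every library scaled to the same summed FPKM, called equal sums here, these medians were 0.54 and 0.76, and 8 members were higher and 3 lower. The 3 libraries of the strong clone all lay above those of the weak clone in 14 of the 69 genes, where 23.3% of all tested genes did so. They all lay below them in another 14, where 22.1% of all tested genes did so.

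By class, differences between which were not tested, the counts were as follows. Among 37 tested autophagy genes limma called 0 higher and 1 lower, with 2 higher and 9 lower at an unadjusted p under 0.05 and no call by voom, a weighted form of limma on read counts. Of 3 tested metacaspases 1 was higher. None of the 3 tested vacuolar-processing enzymes passed by limma or voom, with 1 lower at an unadjusted p under 0.05. Of 26 tested senescence-named genes 4 were higher and 3 lower. The called share was 2.70% of the autophagy and 26.9% of the senescence-named genes, against 15.3% of all tested genes. At an unadjusted p under 0.05, limma had 10 of the 69 members higher and 16 lower. Of all 16462 tested genes 3698 were higher and 3842 lower at that level, the background for every unadjusted count of this test. No member was expressed in 1 clone only, taken as at least 1 FPKM in all of its libraries and under 0.1 in all libraries of the other clone. PARG02465, with 126 reads in the strong and 0 in the weak clone, missed this rule only through strong library 2, at 0.966 FPKM.

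These calls rest on few libraries. The number of members called was 0, 1 and 0 without strong library 1, 2 or 3, and 3 and 1 without weak library 1 or 2. In these settings 166, 353, 230, 610 and 395 of all 16462 tested genes were called. Without weak library 3, 50 of the 69 members were called, where 38.0% of all tested genes were higher and 35.4% lower. At an unadjusted p under 0.05 the 2 settings with no call held 13 and 11 members, against 26 with all libraries. All tested genes were not counted at that level in these 2 settings.

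**Figure D1:**
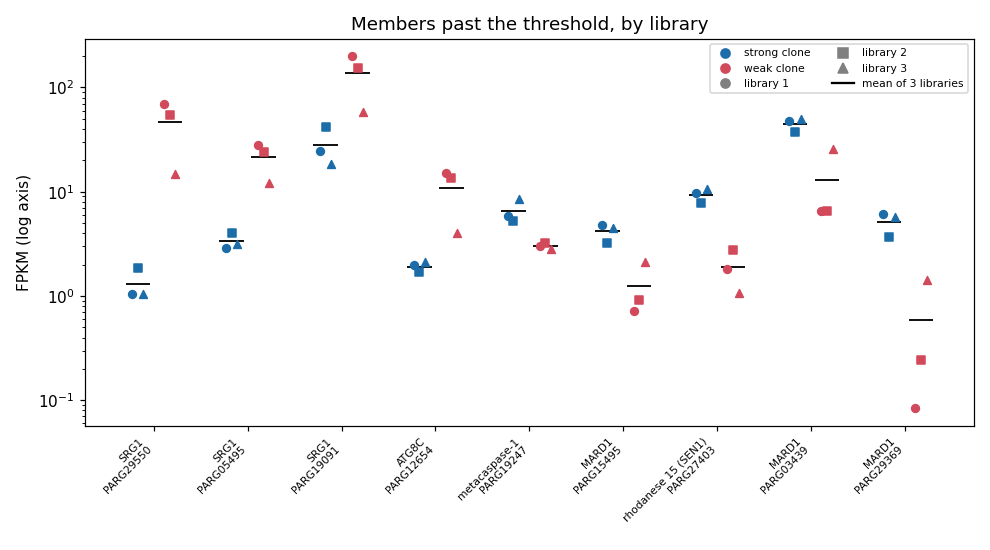
FPKM in each library (log axis) of the 9 members with an adjusted p under 0.05, with strong libraries and weak libraries as separate points and lines at the group means. The libraries of the clones do not overlap in any of the 9, and weak library 3 lies between the strong libraries and weak libraries 1 and 2 in 7 of them.

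Of the genes that start autophagy and form its conjugation machinery, none passed the test by limma or voom. At an unadjusted p under 0.05, 2 initiation genes were higher and 1 conjugation gene was lower. The 8 genes of the ATG1 initiation complex had a median log2 difference of 0.17, with 4 positive and 4 negative, or 8 positive with equal sums. Their summed level was 58.0, 58.6 and 53.5 FPKM in the strong libraries and 56.2, 58.4 and 51.8 FPKM in the weak libraries. These sums overlapped and differed by less than their spread within a clone.

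Within that complex, ATG13b (PARG04229), a scaffold that binds the ATG1 kinase, was at 5.83, 4.97 and 6.09 FPKM in the strong libraries and 2.37, 2.23 and 3.98 FPKM in the weak libraries. All strong libraries lay above the weak ones, with a log2 difference of 0.81 ± 0.24 (SE, limma adjusted p = 0.0630). The other scaffold, ATG13a (PARG19736), was at 13.9 ± 1.68 and 14.5 ± 0.668 FPKM (SD, n = 3). ATG101, which stabilises ATG13 in other eukaryotes, matched a pair of genes of unlike behaviour. PARG27022 was at 9.08 ± 1.92 FPKM in the strong and 5.77 ± 0.673 FPKM in the weak clone (0.56 ± 0.22, limma adjusted p = 0.0951). PARG27110 was at 5.98, 0.749 and 0.733 FPKM in the strong libraries and 2.15, 1.58 and 2.59 FPKM in the weak libraries. Its mean in the strong clone thus rests on strong library 1, and its span overlaps other genes.

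The kinase genes of the complex pointed different ways. ATG1c (PARG02511) had a log2 difference of -0.52 ± 0.26 (limma adjusted p = 0.153), ATG1a (PARG18578) one of 0.44 ± 0.24 (adjusted p = 0.181) and ATG1t (PARG04210), a short kinase form of seed plants, one of 0.41 ± 0.18 (adjusted p = 0.124). ATG11 (PARG04413), a scaffold that links the complex to cargo, had -0.29 ± 0.21. In ATG1t alone of these 4 did the clones' libraries not overlap.

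Membrane supply was carried by 9 genes, of which 2 had a positive and 7 a negative difference and none passed by limma or voom. Their median was -0.41, or 0.36 with equal sums. At an unadjusted p under 0.05, 3 were lower. ATG18 proteins bind phosphoinositides on the growing membrane, and the most abundant one, ATG18d (PARG19153), was at 29.2, 41.0 and 22.9 FPKM in the strong libraries. In the weak libraries it was at 110, 93.2 and 39.2 FPKM. Weak library 3 lay below strong library 2, so the clones overlapped, and the log2 difference was -1.27 ± 0.43 (limma adjusted p = 0.0771). ATG18h (PARG02978), which overlaps a gene of the other strand, had -0.84 ± 0.31 and ATG18g (PARG20009) -0.47 ± 0.20, whereas ATG18b (PARG04429) had 0.41 ± 0.17. ATG9 (PARG20243), the membrane-spanning member, was at 8.23 ± 0.996 and 10.6 ± 1.26 FPKM, and ATG2 (PARG21251), a lipid transfer protein, at 9.97 ± 1.29 and 13.7 ± 3.05 FPKM. In the lipid kinase complex, ATG6 (PARG18472), the beclin-1 homolog, was at 8.35 ± 0.792 and 9.82 ± 0.742 FPKM with a log2 difference of -0.21 ± 0.18.

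Of the 7 conjugation genes 3 had a positive and 4 a negative difference, with a median of -0.19, or 0.56 with equal sums. Their summed level was 77.6, 82.8 and 73.2 FPKM in the strong libraries and 125, 117 and 77.2 FPKM in the weak libraries. Here weak library 3 lay within the range of the strong clone and the other weak libraries above it. ATG4 (PARG16326), the protease that trims ATG8 and frees it from membranes, was the most abundant of them. It was at 17.8, 21.9 and 16.8 FPKM in the strong libraries and 45.2, 45.6 and 24.5 FPKM in the weak libraries. All strong libraries lay below the weak ones, with a log2 difference of -0.95 ± 0.29 (limma adjusted p = 0.0649). ATG7 (PARG12092), the activating enzyme shared by both conjugation branches, lay above the weak clone in every strong library, at 6.59 ± 0.633 against 5.09 ± 0.563 FPKM (0.32 ± 0.19, adjusted p = 0.221). ATG5 (PARG09187), the acceptor of ATG12, was at 13.97 ± 0.406 and 13.5 ± 3.72 FPKM, and ATG16 (PARG24494), its partner, at 7.70 ± 0.0665 and 10.3 ± 1.12 FPKM.

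ATG8 is the family of autophagy genes with the largest number of members here. Of its 10 tested genes 1 passed the test, as lower in the strong clone, where 7.78% of all tested genes were lower. The table holds 13 genes described by ATG8 or its domain, of which 10 were tested, with a median log2 difference of -0.94, 2 positive and 8 negative. The 13 include galactosyltransferase genes with an Atg8 domain, PARG12445 and PARG13742. The latter, at 39.4 ± 3.50 and 80.9 ± 32.1 FPKM, overlaps a gene of the other strand. Over the 11 genes without them, the summed level was 234, 337 and 212 FPKM in the strong libraries. In the weak libraries it was 647, 543 and 266 FPKM. The summed level of all 13 was 272.5, 381 and 249 FPKM in the strong libraries and 757, 634 and 312 FPKM in the weak libraries. Weak library 3 thus lay within the range of the strong clone, and the median moved to -0.13 with equal sums. There the called gene PARG12654 lost its call and PARG26575, an ATG8C gene at 11.3 ± 5.58 and 7.35 ± 3.30 FPKM, was called higher. Without the filter on low values PARG12654 lost its call too, and an ATG8e gene (PARG12194), with 28 reads in strong libraries and 1 in weak ones, was called higher.

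The ATG8 gene that passed the test was an ATG8C gene on linkage group 3 (PARG12654, 25063496 to 25067373). It was at 1.97, 1.68 and 2.10 FPKM in the strong libraries and 15.1, 13.4 and 3.97 FPKM in the weak libraries. All strong libraries lay below all weak ones, with weak library 3 between them. The log2 difference was -1.85 ± 0.46 (limma adjusted p = 0.0445), and -1.18, not past the threshold, with equal sums. Its description names ATG8C, but no Atg8 domain is annotated in it.

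The abundant ATG8 genes did not pass. ATG8f (PARG30438), the most abundant autophagy gene, was at 69.2, 138 and 69.3 FPKM in the strong libraries and 273, 211 and 87.9 FPKM in the weak libraries. Its clones overlapped in weak library 3 and strong library 2 (-0.97 ± 0.50, limma adjusted p = 0.164). ATG8i (PARG04362) was at 51.6, 61.0 and 46.1 FPKM in the strong libraries and 165, 138 and 71.2 FPKM in the weak libraries, without overlap (-1.14 ± 0.35, adjusted p = 0.0646).

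Another ATG8C gene did not follow this pattern. PARG10365 on linkage group 3 was at 58.5, 59.3 and 52.9 FPKM in the strong libraries and 58.1, 54.2 and 47.4 FPKM in the weak libraries, with overlap and a log2 difference of 0.10 ± 0.19 (limma adjusted p = 0.683). It made up 21.5%, 15.6% and 21.2% of the summed ATG8 level in the strong libraries and 7.68%, 8.54% and 15.2% in the weak libraries. Its share was therefore higher in every strong library than in any weak one, though strong library 2 and weak library 3 lay close. Also on linkage group 3, next to an unnamed Atg8 domain gene, stands PARG12442, an ATG8C gene at 3.56, 3.96 and 1.97 FPKM in the strong libraries and 18.4, 18.8 and 4.96 FPKM in the weak libraries. PARG12442 had a log2 difference of -1.69 ± 0.51 (limma adjusted p = 0.0637).

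**Figure D2:**
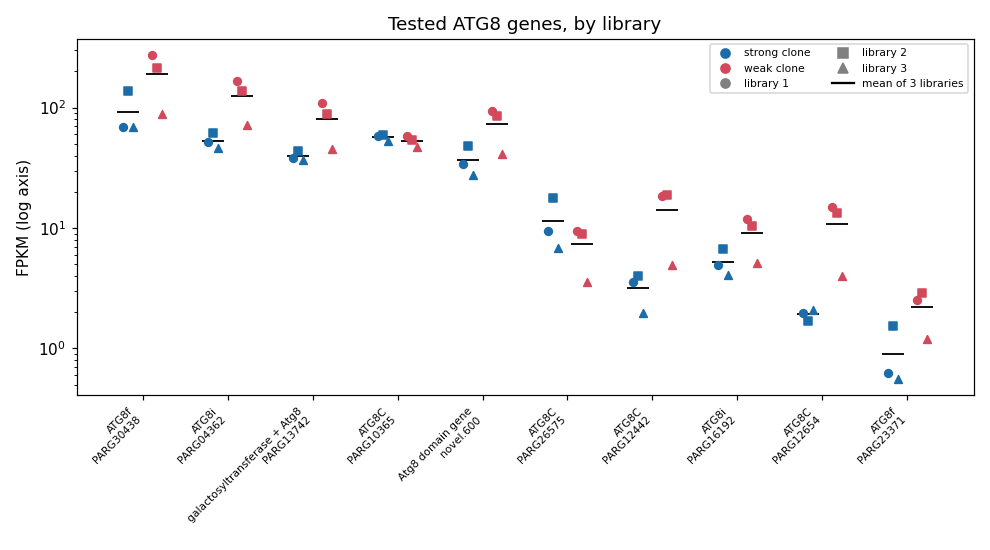
FPKM in each library of the 10 tested ATG8 genes (log axis), with the strong and the weak libraries as separate series. Bars are means of 3 libraries. In PARG12654, PARG12442, PARG04362 and PARG13742 all strong libraries lie below all weak ones, while the points of PARG10365 all lie between 47.4 and 59.3 FPKM. PARG13742 is a galactosyltransferase gene with an Atg8 domain.

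Metacaspases were weakly expressed, and 1 gene was higher in the strong clone. Metacaspase-1 is in Arabidopsis a positive regulator of the hypersensitive cell death that accompanies immunity, and 6 of the 9 metacaspase genes are described by its name. PARG19247 (linkage group 5, 23629237 to 23632230) was at 5.80, 5.27 and 8.52 FPKM in the strong libraries and 3.03, 3.24 and 2.84 FPKM in the weak libraries. Weak library 3 was the lowest of all 6, so this is 1 of the 2 called genes in which it did not move toward the strong clone. The log2 difference was 0.88 ± 0.23 (limma adjusted p = 0.0489), and the gene lost the call under 11 of 15 alternatives. It stayed positive with equal sums, quantile scaling and voom, the alternatives able to reverse a gene without overlap.

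The other tested metacaspases did not pass. PARG17776, also metacaspase-1, was at 4.69, 4.12 and 4.26 FPKM in the strong libraries and 3.23, 2.97 and 4.94 FPKM in the weak libraries (0.21 ± 0.23, limma adjusted p = 0.475). PARG21824 was at 0.677, 1.62 and 1.15 FPKM in the strong and 1.12, 0.474 and 0.742 FPKM in the weak libraries (0.27 ± 0.25, adjusted p = 0.405). The clones overlapped in both, and both differences turned negative under quantile scaling. PARG17776 also overlaps an antisense metacaspase-1 gene (PARG17775), and without a stated strand setting their reads cannot be told apart. The remaining 6, which include metacaspase-4 and metacaspase-9, which lack the prodomain of metacaspase-1, were at most at 0.826 FPKM in any library. Among them metacaspase-2 (PARG26340) had no read. PARG19248, next to the called gene, is also described as metacaspase-1 and was too low to test.

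Vacuolar-processing enzymes, which mature proteins in the vacuole and have caspase-like activity, were carried by 2 abundant genes and 1 minor gene. PARG25800 (linkage group 8) was at 195, 178 and 244 FPKM in the strong libraries and 265, 234 and 158 FPKM in the weak libraries. PARG07617 (linkage group 2) was at 139, 202 and 130 FPKM in the strong libraries and 349, 341 and 158 FPKM in the weak libraries. In both genes the clones overlapped, and weak library 3 was the lowest weak library. Their log2 differences were -0.07 ± 0.31 (limma adjusted p = 0.860) and -0.79 ± 0.40 (adjusted p = 0.160), and both turned positive with equal sums.

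PARG23234 (linkage group 7), the minor gene, was at 4.43, 6.28 and 4.69 FPKM in the strong libraries and 16.7, 14.9 and 6.33 FPKM in the weak libraries. The libraries did not overlap, though weak library 3 and strong library 2 were nearly level, and the log2 difference was -1.07 ± 0.37 (limma adjusted p = 0.0794). The deposited length of PARG23234 is 3902 bases, against 1878 for PARG07617 and 1809 for PARG25800. Whether its reads come from this enzyme alone was not tested. Genes PARG13394 and PARG16022 were near 0, with 3 and 22 reads over all libraries. The class as a whole summed to 339, 386 and 379 FPKM in the strong libraries and 631, 590 and 323 FPKM in the weak libraries, so weak library 3 lay below every strong library. These sums are of FPKM as deposited. The median log2 difference of the 3 tested genes was -0.79, or 0.05 with equal sums.

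Among senescence-named genes, the lower ones were all SRG1 genes. SRG1 is a 2-oxoglutarate and iron dependent dioxygenase named for its appearance in ageing Arabidopsis cell cultures, and 12 genes here carry its name. Of them 5 were tested and 3 were lower in the strong clone, where 7.78% of all tested genes were lower. By limma or voom 0 were higher, and by limma 0 also at an unadjusted p under 0.05. With equal sums PARG21323, at 6.11 ± 0.954 and 4.30 ± 0.820 FPKM, was called higher as well. The summed level of the 12 was 42.8, 61.9 and 37.5 FPKM in the strong libraries and 306.6, 246 and 95.5 FPKM in the weak libraries, without overlap.

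The SRG1 gene with the greatest difference, PARG29550, lies on a contig outside the linkage groups (754237 to 756291). It was at 1.05, 1.84 and 1.06 FPKM in the strong libraries and 69.5, 54.8 and 14.8 FPKM in the weak libraries. The lowest weak library was far above the highest strong one, with a log2 difference of -4.12 ± 0.56 (limma adjusted p = 0.0105). PARG19091 (linkage group 5, 22735467 to 22738445), the most abundant, was at 24.5, 41.5 and 18.3 FPKM in the strong libraries and 198, 153 and 58.1 FPKM in the weak libraries (-2.14 ± 0.52, adjusted p = 0.0422). PARG05495 (linkage group 2, 17347778 to 17349662) was at 2.88, 4.01 and 3.15 FPKM in the strong libraries and 28.0, 23.9 and 12.2 FPKM in the weak libraries (-2.30 ± 0.33, adjusted p = 0.0121). In all 3 genes the clones did not overlap and weak library 3 lay between. These 3 also stayed negative with equal sums, quantile scaling and voom, the alternatives able to reverse a gene without overlap.

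Other SRG1 genes ran the opposite way at low levels. PARG02465 on linkage group 1 was at 1.62, 0.966 and 1.32 FPKM in the strong libraries, 126 reads in all, and had 0 reads in the weak clone. It was at least 25.2-fold higher in the strong clone against a floor of 3 reads over the weak libraries, which covers counting error only. Its neighbour PARG02463 had 18 reads against 0, at least 3.58-fold higher. PARG05696 had 119 reads in strong and 8 in weak libraries, and PARG09392 had 62 and 6. These 4 genes were below the level for testing. Without the filter on low values limma called all 4 higher and PARG19091 was no longer called, so that SRG1 genes then stood at 4 higher and 2 lower. For genes without reads in a clone, altered expression and a missing or divergent gene cannot be told apart. Also in the group on linkage group 1, PARG02464 was at 4.21 ± 0.455 and 6.99 ± 1.88 FPKM (-0.60 ± 0.23, limma adjusted p = 0.0975), so the neighbours did not share a direction.

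Of the MARD1 genes 3 of 6 were higher in the strong clone, where 7.53% of all tested genes were higher. MARD1 of Arabidopsis belongs to the FCS-like zinc finger proteins, which bind the energy-sensing kinase SnRK1, and was named for mediating dormancy under abscisic acid. All 6 genes with this name were tested. By limma 0 were lower, with 5 higher and 0 lower at an unadjusted p under 0.05, where 3698 and 3842 of all 16462 tested genes were. By voom 2 were higher, with equal sums 3 and with quantile scaling 5. In those settings 923, 1568 and 1490 of all tested genes were higher. The median log2 difference was 1.19. In 5 of the 6 genes every strong library lay above the weak clone, against 23.3% of all tested genes.

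PARG03439 (linkage group 2, 1034885 to 1037792) was at 47.3, 37.8 and 49.7 FPKM in the strong libraries and 6.50, 6.59 and 25.7 FPKM in the weak libraries (1.99 ± 0.51, limma adjusted p = 0.0476). PARG15495 (linkage group 4, 20142166 to 20146184) was at 4.83, 3.25 and 4.50 FPKM in the strong and 0.718, 0.925 and 2.13 FPKM in the weak libraries (1.24 ± 0.29, adjusted p = 0.0397). PARG29369, on a contig (77208 to 78551), was at 6.14, 3.64 and 5.76 FPKM in the strong and 0.0843, 0.242 and 1.43 FPKM in the weak libraries (2.03 ± 0.36, adjusted p = 0.0202). In each, weak library 3 was the weak library nearest to the strong clone. The zinc finger domain is annotated in the first 2 of these genes but not in PARG29369. Of 15 alternatives the call held under 4 for PARG03439, which lost it with equal sums, voom, both other pseudocounts and no variance trend, under 8 for PARG15495 and under 10 for PARG29369.

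The most abundant MARD1 gene went against the others. PARG20118 (linkage group 6) was at 148, 136 and 175 FPKM in the strong libraries and 237, 204 and 140 FPKM in the weak libraries, with overlap (-0.31 ± 0.29, limma adjusted p = 0.400). Its difference turned positive with equal sums and with quantile scaling. PARG27597 (linkage group 8) was at 70.5, 56.9 and 76.99 FPKM in the strong libraries and 49.4, 39.0 and 39.7 FPKM in the weak libraries (0.66 ± 0.21, adjusted p = 0.0710). PARG08049 (linkage group 2) was at 5.12 ± 0.609 against 1.93 ± 1.202 FPKM (1.13 ± 0.31, adjusted p = 0.0543). Because PARG20118 held most of the reads, the summed MARD1 level overlapped between the clones, at 283, 242 and 317 FPKM in the strong and 295, 252 and 212 FPKM in the weak libraries.

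**Figure D3:**
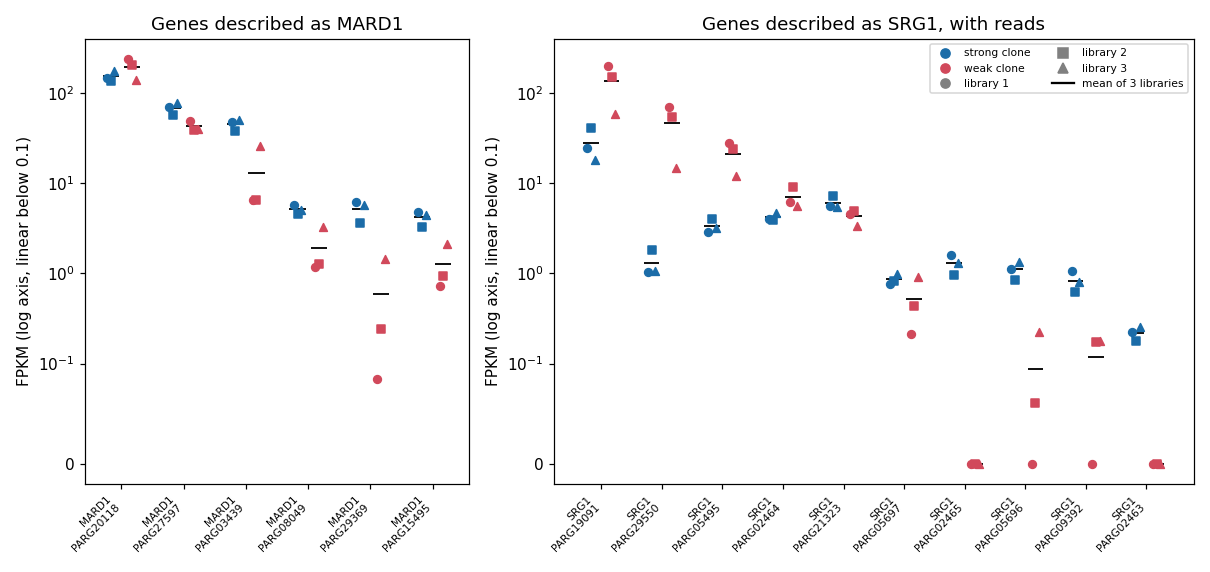
FPKM in each library (log axis, linear below 0.1 FPKM) of the 6 MARD1 genes and the 10 SRG1 genes with reads, with strong and weak libraries as separate series and bars at the means. In 5 of 6 MARD1 genes all strong libraries lie above the weak ones, against 23.3% of all tested genes. In 4 of the 5 tested SRG1 genes all strong libraries lie below, against 22.1% of all tested genes.

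The remaining higher gene was the homolog of Arabidopsis SEN1, listed as rhodanese-like domain-containing protein 15 (PARG27403, linkage group 8, 16611182 to 16612964). SEN1 is a sulfurtransferase-like protein whose transcript builds up in darkened and ageing leaves. The gene was at 9.76, 7.83 and 10.5 FPKM in the strong libraries and 1.82, 2.76 and 1.07 FPKM in the weak libraries. The clones were well separated and weak library 3 was the lowest, in contrast to most called members. The log2 difference was 1.88 ± 0.28 (limma adjusted p = 0.0125), and the call held under 12 of 15 alternatives.

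None of 5 tested genes with a senescence regulator domain, a domain of plant proteins of little known function, passed by limma, with 1 higher and 1 lower at an unadjusted p under 0.05. PARG12454 (linkage group 3) was at 63.1, 102 and 60.3 FPKM in the strong libraries and 224, 194 and 95.7 FPKM in the weak libraries (-1.13 ± 0.40, adjusted p = 0.0804). PARG12443, on the same linkage group and also annotated as a galactosyltransferase, was at 6.34, 4.27 and 5.46 FPKM in the strong and 0.479, 0.653 and 4.09 FPKM in the weak libraries (1.44 ± 0.49, adjusted p = 0.0765). PARG13504 (linkage group 4) was at 8.62, 8.28 and 8.26 FPKM in the strong and 1.73, 2.53 and 12.4 FPKM in the weak libraries. In PARG13504 weak library 3 exceeded the strong clone, while weak libraries 1 and 2 lay below it.

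Aleurain, a papain-like protease of the vacuole, was the most abundant gene of the whole set. PARG27709 (linkage group 8) was at 273, 456 and 238 FPKM in the strong libraries and 726, 696 and 295 FPKM in the weak libraries. Weak library 3 fell within the range of the strong clone, and the log2 difference of -0.77 ± 0.49 did not pass (limma adjusted p = 0.237) and turned positive with equal sums and with quantile scaling. The gene similar to the senescence and dehydration protein At4g35985 (PARG27845), which overlaps another gene, was at 10.1, 15.5 and 8.20 FPKM in the strong and 45.4, 47.9 and 13.5 FPKM in the weak libraries (-1.43 ± 0.51, adjusted p = 0.0838).

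Several regulators known from leaf ageing or immunity were expressed without a call. SAG101 (PARG12996), a partner of the immune regulator EDS1, was at 5.27 ± 0.725 and 3.71 ± 1.29 FPKM (0.44 ± 0.25, limma adjusted p = 0.204). CPR5 (PARG02579), a nuclear pore protein that restrains cell death, was at 8.39 ± 1.74 and 9.93 ± 1.77 FPKM. ATE1 (PARG19070), the arginyltransferase that marks proteins for degradation, was at 10.3 ± 1.55 and 14.2 ± 5.22 FPKM. The clones overlapped in all 3 of these genes.

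The best known markers of leaf senescence were nearly silent in these flowers. SAG12, the papain-like protease used as the standard marker of leaf senescence in Arabidopsis, matched 3 genes, of which 2 had no read, and the highest value of the other was 0.341 FPKM. SAG39, a related protease known from rice, matched 24 genes, of which 17 had no read in any library. They stand in arrays, with 9 on linkage group 3 (22030414 to 22124232), 13 on linkage group 4 (15649635 to 17250346) and 2 on linkage group 2. The highest of them, PARG12113, was at 0.0856, 0.301 and 0.254 FPKM in the strong libraries and 0.0940, 2.42 and 1.36 FPKM in the weak libraries, so only weak libraries 2 and 3 reached 1 FPKM. Of 8 genes for DLO1, an enzyme that hydroxylates salicylic acid, 4 had no read and none exceeded 0.935 FPKM. For a gene of 1 kilobase, 3 reads over the 6 libraries correspond to 0.027 FPKM, which bounds the level of a gene of that length with no read and covers counting error only. Near-identical copies can also share or lose reads, which makes the low values of such arrays uncertain.

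**Figure D4:**
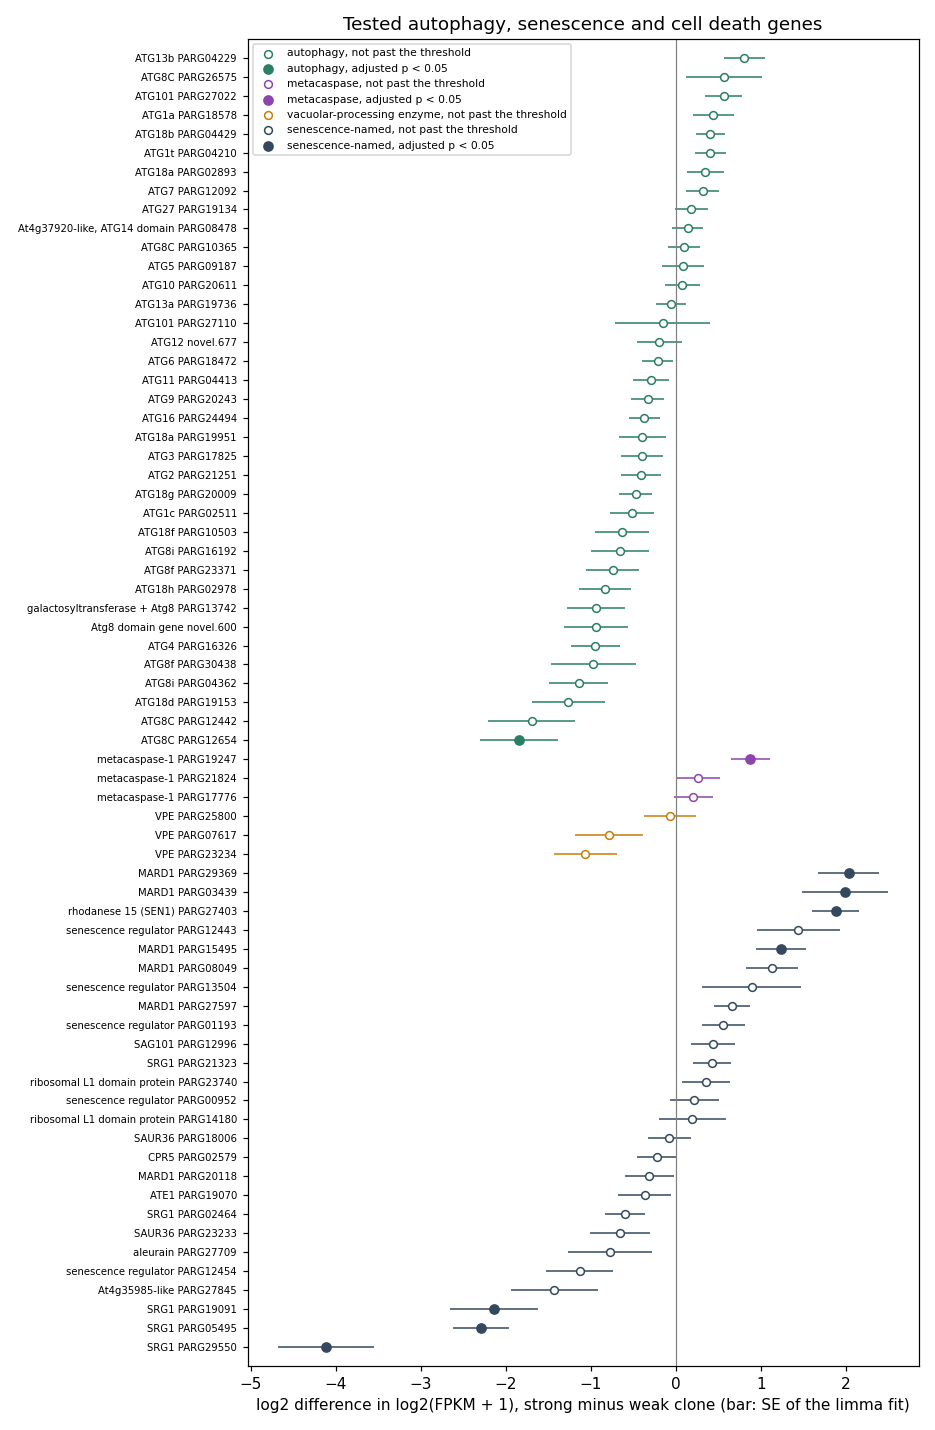
Log2 difference, strong minus weak, on the log2(FPKM + 1) scale with the SE of the limma fit for all 69 tested members, ordered within the 4 classes. Filled points mark an adjusted p under 0.05, and the 37 autophagy genes reach from -1.85 to 0.81 while the senescence-named genes reach from -4.12 to 2.03.

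Genes that act on these pathways but are not members were taken by name in 3 lists. Of 14 tested regulators of autophagy 1 was higher and 0 lower by limma, with 1 higher and 6 lower at an unadjusted p under 0.05 and 1 higher and 1 lower by voom. The called share was 7.14%, against 15.3% of all tested genes. The median of the list was -0.44, or 0.31 with equal sums. The higher gene was the gamma-1 subunit of the SNF1-related kinase (PARG24414), of the energy-sensing kinase family that opposes TOR. It was at 59.9, 80.5 and 69.1 FPKM in the strong libraries and 24.5, 27.3 and 32.0 FPKM in the weak libraries (1.29 ± 0.21, adjusted p = 0.0153). Its groups were far apart and weak library 3 stayed close to the other weak libraries. The other tested subunits of that kinase did not pass. Genes for an SNF4-like subunit had 0.58 ± 0.42 (PARG02903) and -0.04 ± 0.17 (PARG05499). The remaining subunits had negative differences. These were -1.63 ± 0.43 for a gamma-1-like subunit (PARG06288, adjusted p = 0.0501) and -0.80 ± 0.21 for beta-2 (PARG12663, adjusted p = 0.0513). They were -0.89 ± 0.32 for beta-3 (PARG00999, adjusted p = 0.0843) and -0.76 ± 0.40 for the catalytic subunit KIN10 (PARG13147, adjusted p = 0.170). TOR itself (PARG20993), the kinase that represses autophagy, had a log2 difference of 0.14 ± 0.17, and NBR1 (PARG24557), a cargo receptor that binds ATG8, one of -0.83 ± 0.30 (adjusted p = 0.0824).

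Of 71 tested cell death regulators and executioners 4 were higher and 5 lower, with a median of -0.04, or 8 higher and 2 lower with a median of 0.74 with equal sums. The called share of 12.7% was near the 15.3% of all tested genes. The list was formed by words and also took unrelated genes such as flap endonuclease 1. BAG chaperone regulators, which bind Hsp70 and in Arabidopsis include both promoters and inhibitors of cell death, were called in both directions. BAG5 (PARG12577) was at 21.7, 20.9 and 31.8 FPKM in the strong and 0.601, 1.58 and 9.81 FPKM in the weak libraries (2.84 ± 0.68, limma adjusted p = 0.0418). BAG1 (PARG23747) was at 1.58, 1.39 and 0.697 FPKM in the strong and 29.5, 24.7 and 11.4 FPKM in the weak libraries (-3.28 ± 0.38, adjusted p = 0.00762). Neither PARG12577 nor PARG23747 overlapped between the clones. Another BAG5 gene (PARG05821) had -0.65 ± 0.27 and did not pass. More abundant BAG1 genes did not pass either, with -0.40 ± 0.35 (PARG19432) and -0.09 ± 0.23 (PARG11844). Nor did BAG4 (PARG29297, -0.07 ± 0.20), BAG6 (PARG18426, -0.93 ± 0.40) or BAG8 (PARG13210, 0.96 ± 0.36). The other genes called higher were apoptosis-inducing factor 2 (PARG17102, 0.83 ± 0.20), a B2 protein gene with a development and cell death domain (PARG22667, 1.68 ± 0.33) and a gene described as a Copia retroelement protein (PARG23153, 2.56 ± 0.61). A more abundant gene for apoptosis-inducing factor 2 (PARG01453) had -0.80 ± 0.32 and did not pass. The B2 genes PARG24066 (-0.04 ± 0.34) and PARG29270 (1.79 ± 0.51) did not pass either. Lower as well were a cinnamoyl-CoA reductase-like gene, SNL6 (PARG12938, -1.40 ± 0.21), a gene for the vacuolar protease RD21A (PARG12073, -1.34 ± 0.30) and the genes ACCELERATED CELL DEATH 6 (PARG24519, -1.23 ± 0.30) and ceramide kinase (PARG18884, -1.55 ± 0.34), whose loss or gain of function gives spontaneous lesions in Arabidopsis. More abundant RD21A genes did not pass, with -1.04 ± 0.52 (PARG07758) and -0.31 ± 0.26 (PARG02167).

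Of 11 tested genes taken by names of chlorophyll breakdown 0 were higher and 2 lower by limma, with 1 higher and 4 lower at an unadjusted p under 0.05 and 0 higher and 3 lower by voom. The list median was -0.40, or 0.26 with equal sums, where 1 was higher and 1 lower. The called share was 18.2%, against 15.3% of all tested genes. The words also took genes outside breakdown, chlorophyllide a oxygenase (PARG08369), TIC 55 (PARG07447) and a protochlorophyllide-dependent translocon component (PARG00058), and the last is 1 of the 2 lower genes (-2.01 ± 0.36, adjusted p = 0.0205). The other is 1 of 4 genes for pheophytinase, which removes the phytol tail. This gene, PARG27233, was at 4.84, 4.58 and 4.65 FPKM in the strong libraries and 13.99, 12.98 and 10.5 FPKM in the weak libraries (-1.24 ± 0.19, adjusted p = 0.0141). The clones were well separated. The other pheophytinase genes did not pass, with log2 differences of 0.44 ± 0.25 (PARG19353), -0.47 ± 0.31 (PARG16514) and -0.40 ± 0.21 (PARG16505). STAY-GREEN (PARG23707), which extracts magnesium from chlorophyll, had a log2 difference of -1.86 ± 0.49 (adjusted p = 0.0511). In these libraries the green tissue genes were at lower levels in the weak clone, and their part in these values was not tested.

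Weak library 3 bears on most of these values. Of the 69 tested members it lay between the strong clone and weak libraries 1 and 2 in 22 (31.9%, against 37.3% of all tested genes) and within the range of the strong clone in another 22 (31.9%, against 27.4%). Without it 18 members were higher, where 38.0% of all tested genes were higher, and 32 were lower, where 35.4% of all tested genes were lower. The ATG8 genes then gave 8 lower and 0 higher of 10, the vacuolar-processing enzymes 2 lower of 3 and the MARD1 genes 5 higher and 1 lower of 6. The limma fit to the other 5 libraries takes the spread of the weak clone from weak libraries 1 and 2 alone, and all tested genes gained calls in it.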

How the data were processed

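The authors deposited FPKM values for 31889 genes with positions, lengths and descriptions, and per the submitters' processing notes used CASAVA, RSEM and Bowtie2. The sources used here give no versions, genome build or strand setting. Coordinates are as deposited. In each library 100% of positive FPKM values times gene length were whole multiples of 1 step, within 0.01 read, which gave the reads quoted and each library's sum. The 16462 genes that reached 1 FPKM in 3 or more of the 6 libraries were fitted on log2(FPKM + 1) by limma (version 3.58.1, R version 4.3.3), two-sided, with a variance trend and Benjamini-Hochberg adjustment over all tested genes at 0.05. Differences on this scale understate the change of low genes. FPKM means carry SD, differences the SE of the fit. Values per library are given for called members, for the most abundant member and all tested metacaspases and vacuolar-processing enzymes, and for others chosen after their values were seen. Members and lists were chosen with earlier results of these data known. Of the tested members 6 overlap another gene, none of them called.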

Additional observations from a re-analysis of the deposited data

How the results depend on the processing

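All 9 called members kept their direction under all 15 alternatives, but the counts moved. Because the clones do not overlap in any of the 9, only equal sums, quantile scaling and voom could have reversed a direction. Members higher and lower were 5 and 4 in the reported test. They were 2 and 4 with a pseudocount of 0.1 FPKM, 3 and 4 with 0.5 FPKM, 7 and 2 without a filter on low values, 8 and 3 with equal sums, and 3 and 3 with voom on reads computed from FPKM, an alternative chosen after seeing the data. Leaving out 1 library gave 0 to 18 higher and 0 to 32 lower, and 166 to 12075 of all tested genes against 2520. With the replicate number as a block, 8 members were higher and 14 lower, and 6439 of all genes passed. Libraries with the same number correlated at -0.236, 0.588 and 0.605 in their deviations, and not every library correlated best with its own number, so the numbers were not taken to pair the samples. With equal sums 67.7% of 2315 called genes were higher, against 49.2% as deposited. The autophagy median went from -0.33 to 0.42 with equal sums and to -0.39 with quantile scaling.

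Differences that reversed were not past the threshold. With equal sums PARG07617 had 0.046, PARG25800 0.76 and PARG27709 0.060. With quantile scaling PARG25800 had 0.61, PARG27709 0.17, PARG17776 -0.087 and PARG21824 -0.057. Leaving out 1 library gave PARG25800 values from -0.29 (without weak library 3) to 0.082 (without weak library 1), with 0.027 without strong library 2. The cause was not tested. Among called members, adjusted p ranged from 5.14e-05 to 0.0646 for PARG29550 and from 0.0113 to 0.192 for PARG19247. With 3 libraries against 3, an exact permutation test of a single gene cannot go below 0.1.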
